A study of Mus musculus with 9 samples.

Results

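The bodies of very long genes are described here as stretches of chromatin. A gene was taken as long when it was an autosomal protein-coding gene of 500 kb or more, and its body was every window of the GpC methylation table that lay wholly inside the gene and held no annotated transcript 5′ end. This rule used only the annotation and no measured value. It gave 218 genes on chromosomes 1 to 19, all with body windows, and 56055 windows, which were 6.73% of the 833294 deposited. The comparison set was the body windows of genes under 50 kb, 65249 windows in 11730 of 16020 such genes, called short genes below. The long genes ran from 502 to 4435 kb with a median of 733 kb, and had 47 to 1803 body windows each with a median of 223, against a median of 4 per short gene. Of the long genes, 189 held no other protein-coding gene, while 7 held more than 2 and included models that join several genes, such as Gm20388 at 4435 kb and the Fgfr2 model at 2961 kb.

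Accessibility was measured by NOMe-seq in female F1 mouse embryonic stem cells (mESCs) of FVB dams and CAST sires, with 1 library from cells in 2i medium at day 0 and 1 library each at days 4, 5, 6 and 7 of differentiation from cells given a non-silencing hairpin (Nons) or a hairpin against Smarcc1. Hairpins were delivered on day 2 and puromycin was applied from day 3, so the day 0 cells differ from all others in both medium and hairpin. Smarcc1 belongs to the core of BAF, a complex that slides and evicts nucleosomes, and no value in these data measures its transcript, so the extent of the knockdown is not known here. There were no replicates, each value describes its own library, and the depth behind the values is unknown.

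In NOMe-seq a GpC methyltransferase marks cytosines of GpC dinucleotides that are not wrapped in a nucleosome or covered by a bound protein, so a higher percent GpC methylation stands for more open DNA. The body of a very long gene is almost wholly intron, and RNA polymerase II takes hours to cross it. Many such genes encode adhesion molecules, ion channels and synaptic proteins that are used in neurons rather than in stem cells, and several coincide with common fragile sites, which break when replication is slowed.

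The windows of long genes differed from those of short genes in sequence, which sets where the assay can read. The median window of a long gene was 3011 bp long with 40.6% GC, and had 75.8 informative GpC positions per kb on both strands and 227 in all. The median window of a short gene was 2349 bp with 45.8% GC and 95.3 positions per kb, 221 in all. Exon sequence was present in 10.8% of the windows of long genes and in 62.1% of those of short genes. The central 240 bases of 3 windows are given as examples, chosen because each had a mean level nearest to that of its gene. They come from the long genes of highest (Cdh18) and lowest level (L3mbtl4) and from a short gene near the short-gene median (Cmtm4). Capitals mark the GC dinucleotides that are informative on at least 1 strand, meaning that on that strand, read 5′ to 3′, the base after GC is not G. A capital GC followed by g in the line is thus informative on the other strand. All are from GRCm38 (mm10), plus strand, and lie outside annotated exons.
Cdh18, chr15:22857638-22857877: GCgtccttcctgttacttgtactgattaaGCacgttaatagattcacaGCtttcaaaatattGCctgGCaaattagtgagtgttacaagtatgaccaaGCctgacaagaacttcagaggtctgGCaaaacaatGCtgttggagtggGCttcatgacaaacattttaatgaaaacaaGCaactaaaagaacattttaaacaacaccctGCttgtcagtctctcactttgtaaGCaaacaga
L3mbtl4, chr17:68746977-68747216: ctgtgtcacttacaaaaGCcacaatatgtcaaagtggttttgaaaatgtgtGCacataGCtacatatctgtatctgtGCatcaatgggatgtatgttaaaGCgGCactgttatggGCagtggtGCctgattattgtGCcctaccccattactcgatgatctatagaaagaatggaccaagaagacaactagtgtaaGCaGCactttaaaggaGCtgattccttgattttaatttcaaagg
Cmtm4, chr8:104389031-104389270: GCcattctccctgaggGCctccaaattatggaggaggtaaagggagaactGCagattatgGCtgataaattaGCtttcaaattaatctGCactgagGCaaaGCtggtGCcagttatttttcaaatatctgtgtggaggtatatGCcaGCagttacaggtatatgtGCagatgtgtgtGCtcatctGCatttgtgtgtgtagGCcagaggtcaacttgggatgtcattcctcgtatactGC
The stretches from Cdh18 and L3mbtl4 each held 12 informative dinucleotides, and the stretch from Cmtm4 held 16. The Cdh18 window stood at 11.3% at day 0. Its Nons values from day 4 to day 7 were 18.8, 33.3, 5.77 and 4.13%, and its knockdown values 10.6, 20.5, 24.2 and 8.33%. The L3mbtl4 window stood at 12.5% at day 0, with Nons values of 5.26, 22.0, 25.4 and 3.85% and knockdown values of 4.35, 17.1, 7.79 and 5.17%. The values of single windows crossed between these genes, with L3mbtl4 above Cdh18 at day 0 and in Nons at day 6, and all values below are therefore means over the windows of a gene.

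The median level over the 218 long genes was 11.6% at day 0. From day 4 to day 7 it took the values 14.2, 21.5, 11.0 and 6.86% in Nons cells and 11.4, 20.6, 12.3 and 7.53% in knockdown cells. The short-gene median was 12.0% at day 0, with 14.4, 21.8, 10.7 and 6.89% for Nons and 11.8, 20.5, 12.4 and 8.02% for the knockdown. Both length classes thus moved with the library as a whole, and the table is not normalized between libraries. Against day 0, all 218 long genes were higher in both day 5 libraries and in the Nons library of day 4, and none was higher in either library of day 7. Of short genes, 73.7% were higher in Nons at day 4. The shares were 94.3% in Nons and 93.6% in the knockdown at day 5, and 9.81% and 16.7% at day 7. The SD over long genes was 0.761 percentage points at day 0, against 4.45 over short genes. A long gene's level averages a median of 223 windows, and a short gene's level 4. The SD at day 0 was 1.83, 1.38 and 1.09 for genes of 50 to 100, 100 to 200 and 200 to 500 kb. The part of window number in this spread was not tested. The median standard error within a long gene, over its windows, was 0.405 at day 0.

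**Figure D1:**
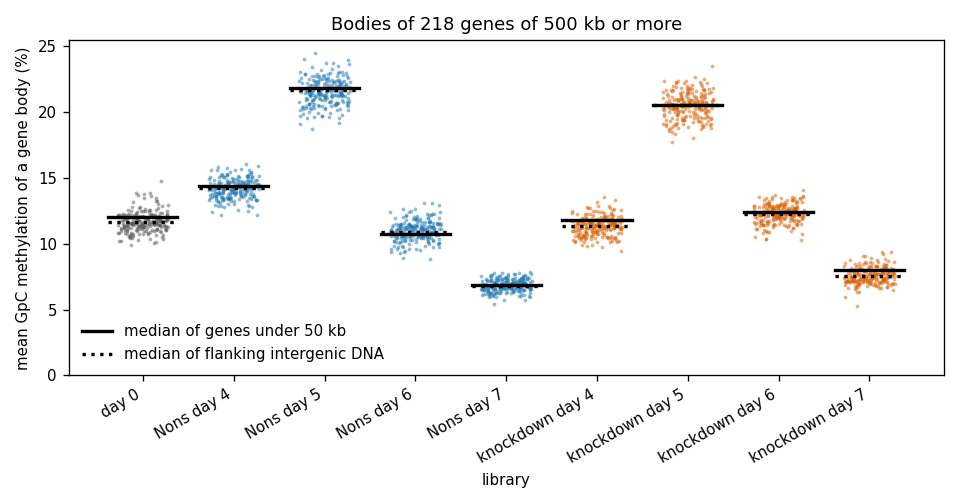
Mean GpC methylation (%) of each of the 218 long gene bodies (points, spread sideways at random) in each of the 9 libraries, with the median of short genes (solid line) and of intergenic DNA within 500 kb of long genes (dotted line). The long genes follow the library, from 6.86% in Nons at day 7 to 21.5% in Nons at day 5 at the median, and both lines pass through the points in every library.

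Long gene bodies were close to short gene bodies in level. The difference between the medians, long minus short, was -0.39 percentage points at day 0. The Nons libraries gave -0.20, -0.29, 0.33 and -0.02 from day 4 to day 7, and the knockdown libraries -0.40, 0.09, -0.10 and -0.50. Long genes were thus lower in 7 of 9 libraries, and higher in Nons at day 6 and in the knockdown at day 5. The mean was -0.166 ± 0.267 (SD over 9 libraries), which was not beyond the spread over libraries (two-sided exact sign-flip permutation test, p = 0.109, 0.183 after Benjamini-Hochberg adjustment over 6 contrasts). As a ratio the mean was -0.02 ± 0.04 on the log2 scale (exact p = 0.125, adjusted p = 0.183). The outcome depended on how the genes were summarised. When window values were corrected for GC content the mean difference was -0.348 (adjusted exact p = 0.0352), and with means over genes in place of medians, an alternative chosen after seeing the data, it was -0.501 (adjusted exact p = 0.0234).

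Long gene bodies were also close to the intergenic DNA beside them. The flanking windows, outside all annotated genes and within 500 kb of either end, had a median GC of 40.8%, near that of the bodies. The median over genes of body minus own flanks was 0.05 percentage points at day 0, with -0.05, -0.11, 0.17 and 0.10 for Nons and 0.03, 0.02, 0.02 and 0.01 for the knockdown. The mean of 0.0265 ± 0.0805 over 9 libraries was within the spread (exact p = 0.348), and from 99 to 129 of the 218 genes were above their flanks in a given library. Some long genes lay on the same side of their flanks in every library, as did some gene bodies of any length. Bodies above their own flanks in all 9 libraries numbered 15 of 218 (6.88%) against 4.11% of 10522 gene bodies of any length, and bodies below in all 9 numbered 13 (5.96%) against 3.79%. These shares were not matched for the number of windows per gene, which is higher in long genes, and their difference was not tested.

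The gene with the largest excess over its flanks was Cdh18, a cadherin of neuronal adhesion, at 1.42 ± 0.774 percentage points (SD over 9 libraries) and 9 of 9 libraries above. The largest deficit was that of Camta1, a calmodulin-binding transcription activator, at -2.28 ± 0.947. Its difference was -3.16 points at day 0, with -1.60, -4.14, -1.33 and -1.53 for Nons and -1.94, -3.02, -2.13 and -1.70 for the knockdown, so its body lay below its flanks in every library. Camta1 has 4 other protein-coding genes inside it and a mean window GC of 49.2%, high for this set.

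Within long genes, windows that touched an exon of the gene itself were more open than windows of intron alone. These exon windows made up 7.90% of the gene-window pairs and had a median GC of 41.0%, against 40.6% for intron-only windows. The median difference over 216 genes was 0.17 points at day 0, with 0.12, 0.30, 0.08 and -0.04 for Nons and 0.33, 0.32, 0.33 and 0.09 for the knockdown. The difference was positive in 8 of 9 libraries, with Nons at day 7 as the exception, and its mean was 0.189 ± 0.137 (exact p = 0.00781, adjusted p = 0.0469). It was the only one of the 6 contrasts to pass the adjustment. Without Nons at day 7 the mean was 0.218 and still passed, while with any other single library left out it was 0.171 to 0.202 and the adjusted exact p was 0.0938. The effect was small beside the spread between genes, since the share of genes with a positive difference was 48.1 to 60.2% by library. The knockdown was above Nons in this difference on all 4 days, by 0.155 ± 0.0986 points (exact p = 0.125, the smallest that 4 pairs can give).

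**Figure D2:**
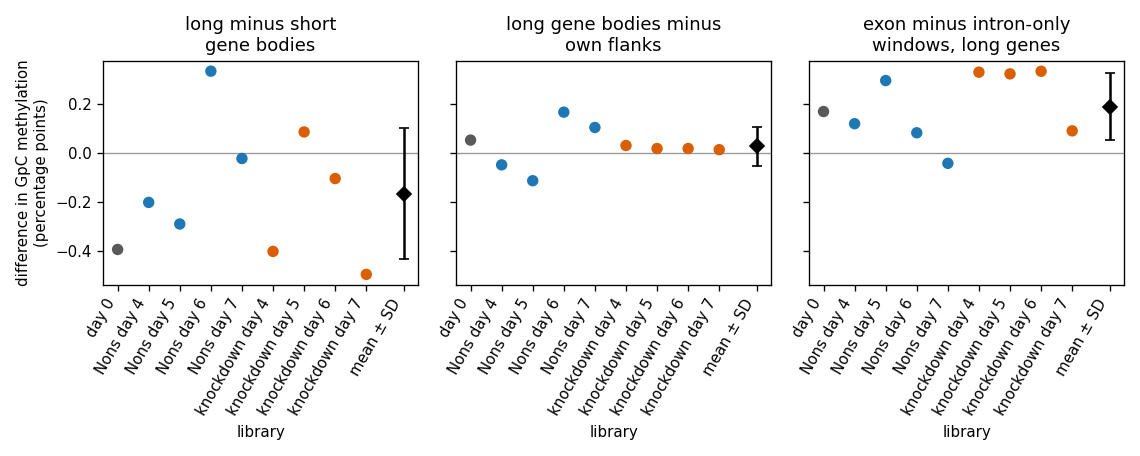
Difference in GpC methylation (percentage points) in each library for long minus short gene bodies, long gene bodies minus their own flanks, and exon minus intron-only windows of long genes, with day 0 in grey, Nons in blue, the knockdown in orange and the mean ± SD over 9 libraries in black. The first 2 contrasts scatter around 0, and the exon contrast is above 0 in 8 of 9 libraries.

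Along the gene the level was nearly flat. With each gene cut into 10 equal parts, the median of every part lay within 0.971 to 1.03 times the median of whole bodies in every library. The first part exceeded the middle (parts 4 to 7) by 0.0841 ± 0.137 percentage points and was higher in 7 of 9 libraries (exact p = 0.105). The last part exceeded the middle by 0.0676 ± 0.126, also in 7 of 9 (exact p = 0.152). Median GC content was 40.3% in the first part and 41.6% in the last, and after correction for GC content the excess of the last part was 0.148 (adjusted exact p = 0.0234). It was 0.0375 when the middle was parts 5 and 6 alone, and 0.0396 without day 0.

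**Figure D3:**
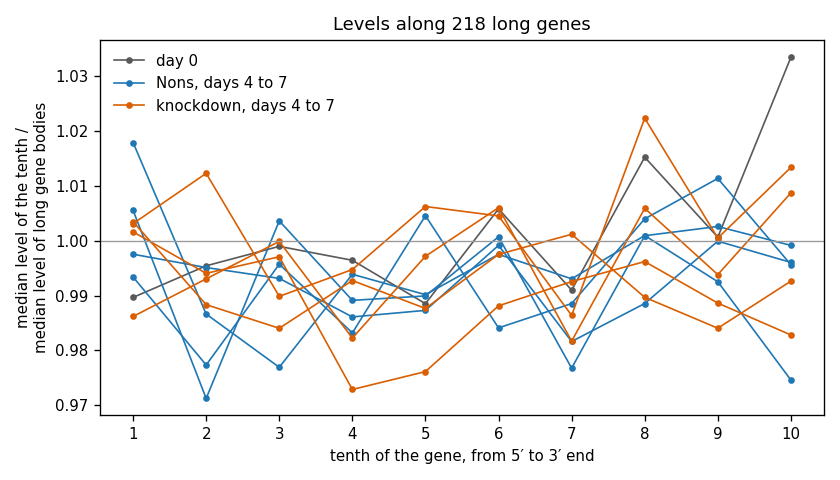
Median level of each of 10 equal parts of the 218 long genes, from the 5′ end to the 3′ end, divided by the median level of long gene bodies in the same library, with day 0 in grey, Nons in blue and the knockdown in orange. No part leaves the range from 0.971 to 1.03, and the libraries cross each other along the whole gene.

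To compare genes across libraries, each level was divided by the median of all 10567 gene bodies with 5 or more windows in the same library. The median relative level of the 218 long genes over the 9 libraries was 0.977, with 161 below 1 and 57 above. It was 0.985 for genes of 200 to 500 kb and 0.997 for genes under 50 kb, both with 5 or more windows. Unlike the short genes above, those under 50 kb kept any windows inside long genes. The level of the long genes ran from 0.859 in L3mbtl4 to 1.08 in Cdh18, a 1.26-fold range. Limma was run across all gene bodies, with the 9 libraries of the time course entered as if they were independent. By this test 84 long genes were lower than 1 (38.5%, where 8.85% of all bodies were called lower) and 18 were higher (8.26%, against 12.1% of all). All 9 libraries were below 1 in 55 long genes (25.2%, against 4.12% of all bodies) and above 1 in 9 (4.13%, against 5.26%). The number of windows moves with these counts. Long genes had a median standard error of 0.0141 in relative level, and genes under 50 kb with 5 or more windows one of 0.0548. Of 305 genes under 500 kb that also had 100 or more windows, 35.7% were called lower and 12.1% higher. The calls also rested on limma's trend in the variance with the number of windows. Without it 36 long genes were lower and 4 higher, all of them among the calls with the trend. Of all 10567 gene bodies, 672 were then lower and 921 higher. With window values corrected for GC content, an alternative chosen after seeing the data, 110 long genes were lower (50.5%) and 15 higher (6.88%). Of these, 81 and 12 were also called without the correction. The shares of all gene bodies after the correction were 9.06% lower and 12.1% higher. The 5 shortest long genes (502 to 506 kb) had relative levels of 0.859 to 1.02, and the 5 longest genes below the limit (491 to 499 kb) of 0.918 to 0.968.

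The 5 lowest long genes were L3mbtl4, which encodes an MBT-domain protein, Sorcs3, a sorting receptor, Ntrk3, the receptor of neurotrophin-3, Dlgap2, a scaffold of the postsynaptic density, and Asic2, a proton-gated channel subunit. L3mbtl4 was at 10.7% at day 0, with levels of 12.8, 20.9, 8.95 and 5.40% for Nons from day 4 to day 7 and 10.5, 19.04, 10.4 and 6.35% for the knockdown. Its relative level was 0.859 ± 0.067 (SD over 9 libraries, limma adjusted p = 1.2e-06) and lay below 1 in all 9. Dlgap2 varied least of the 5, with a relative level of 0.879 ± 0.025 and a range from 0.849 to 0.919 (limma adjusted p = 4.0e-08). Sorcs3, Ntrk3 and Asic2 had relative levels of 0.871, 0.873 and 0.882, and each was below 1 in 9 of 9 libraries. The neighbours in this order differed by less than their SDs over libraries. Ntrk3 and Dlgap2 also lay below their own flanks in every library, by a mean of 1.41 and 1.35 percentage points.

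The 5 highest were Cdh18, Lrba, a BEACH-domain protein of vesicle trafficking, Magi1, a scaffold of cell junctions, Etl4, a gene of notochord and spine development, and Rabgap1l, a regulator of Rab GTPases. Cdh18 was at 12.3% at day 0, with 15.9, 24.0, 13.0 and 7.88% for Nons and 12.1, 23.5, 13.7 and 7.79% for the knockdown. Its relative level was 1.08 ± 0.071 (limma adjusted p = 0.00095) and was below 1 only in the knockdown at day 7. Magi1 was at 13.9% at day 0, with 15.2, 22.4, 12.4 and 7.55% for Nons and 12.3, 21.3, 13.4 and 9.10% for the knockdown. Its relative level was 1.08 ± 0.042 and above 1 in all 9 libraries (limma adjusted p = 0.00021). Lrba, Etl4 and Rabgap1l were at 1.08, 1.07 and 1.07, above 1 in 9 of 9 libraries, and Magi1 and Etl4 were above their own flanks in 9 of 9. Cdh18 was the poorest in GC of these at 36.5%, and after the GC correction its relative level was 1.04 while that of Magi1, at 42.9% GC, stayed at 1.08.

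**Figure D4:**
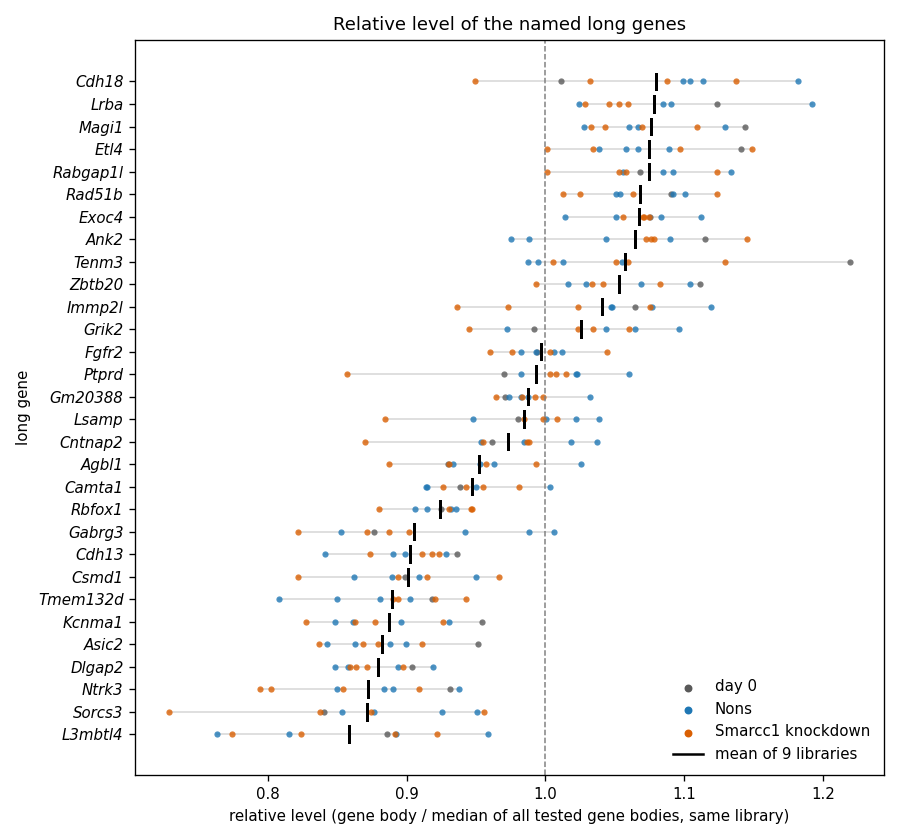
Relative level (gene body divided by the median of all tested gene bodies in the same library) of 30 long genes, with points for day 0 (grey), Nons (blue) and the knockdown (orange), a black bar for the mean of 9 libraries and a dashed line at 1. L3mbtl4 at the bottom has a mean of 0.859 and Cdh18 at the top 1.08, and the colours are mixed within most genes.

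Long genes were also grouped by chosen lists of gene names, which do not hold every gene of a function. The list of adhesion and axon guidance genes had the most long members, 41, of which 21 were called lower (51.2%) and 6 higher (14.6%). The shares among all 218 long genes were 38.5% and 8.26%, and among all bodies tested 8.85% and 12.1%. Their median relative level was 0.963, against 0.977 over all long genes. The lowest was Cdh13, a cadherin anchored by a lipid, at 0.902 ± 0.030, and other members called lower included Kirrel3, Ptprt, Astn2, Opcml and Dscam. Besides Cdh18, the members called higher included Adgrl3, Ptprg, Tenm3 and Robo1, a receptor for Slit guidance cues. The list of ion channels and neurotransmitter receptors had 18 long genes. Of these, 10 were lower (55.6%, beside 38.5% of all long genes) and none higher, with a median of 0.949. Kcnma1, the large-conductance calcium-activated potassium channel, was the lowest on the list at 0.887 ± 0.042, followed by Cacna1c, the L-type calcium channel, and Grid1. The channel subunit gene Asic2, at 0.882 and called lower, was not on this list. The highest on the list, the kainate receptor gene Grik2, was at 1.03 ± 0.048 and did not pass the test (limma adjusted p = 0.26). Synaptic scaffold and signalling genes numbered 13 with 2 lower (15.4%, Dlgap2 and Nrg3), 2 higher (Magi1 and Erbb4) and a median of 0.989.

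Genes that common fragile sites are known to overlap were spread around the median of long genes. Of 21 such genes 5 were lower (23.8%) and 2 higher (9.52%), with a median of 0.979. The lowest was Csmd1, a complement regulator, at 0.901 ± 0.043, and the highest was Exoc4, an exocyst subunit, at 1.07 ± 0.027 and above 1 in all 9 libraries. Of 14 long genes for transcription and RNA regulators 2 were lower (14.3%), 1 was higher (7.14%) and the median was 0.990. Rbfox1, a splicing regulator of neurons and muscle, was the lowest at 0.924 ± 0.021, with values from 0.880 to 0.947, and Zbtb20, a zinc-finger repressor, the highest at 1.05 ± 0.041. Metabolism, repair and trafficking had 12 long members, 3 lower (25%) and 4 higher (33.3%), with a median of 0.982. Rad51b, a protein of homologous recombination, was the highest at 1.07 ± 0.036, and Agbl1, a carboxypeptidase, the lowest at 0.953 ± 0.040. The remaining 114 long genes were in none of these lists, and 44 of them were lower (38.6%) and 5 higher (4.39%). These lists were not tested against the other long genes.

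The 5 longest models were not extreme. Gm20388 and the Fgfr2 model were at 0.987 ± 0.020 and 0.997 ± 0.024. Ptprd, Cntnap2 and Lsamp, adhesion genes of 2271, 2245 and 2197 kb without nested genes, were at 0.993, 0.973 and 0.985. None of the 5 passed the test without GC correction. After that correction Gm20388 and the Fgfr2 model were at 0.985 and 1.00. Ptprd, Cntnap2 and Lsamp were then at 0.967, 0.952 and 0.966, and the limma adjusted p of Cntnap2 was 0.00076. Over the 218 genes, which share libraries and base composition, Spearman's rho of the mean relative level with gene length was -0.0251, and with mean GC content -0.326.

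The relation with GC content differed between libraries. Spearman's rho over the 218 genes was -0.613 in the knockdown at day 5 and -0.498 in Nons at day 4, but -0.0644 at day 0 and 0.283 in the knockdown at day 7. The 73 long genes of lowest GC content had a median relative level of 1.02 in the knockdown at day 5 and of 0.898 at day 7, while the 73 of highest GC content were at 0.954 and 0.963. Among the lowest-GC genes 8 were called higher and 14 lower, and among the highest-GC genes 4 and 38. Of all gene bodies tested, 12.1% were called higher and 8.85% lower. These were not split by GC content, so no background of like GC content is given. The order of the genes was partly shared, as Spearman's rho between 2 libraries over the 218 genes was 0.265 to 0.754 with a median of 0.570 over 36 pairs. The libraries share the sequence of the genes, and the part of base composition in this agreement was not tested.

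The knockdown addressed whether long gene bodies depend on Smarcc1. As deposited, the median change over long genes, knockdown minus Nons, was negative at days 4 and 5 (-2.85 and -1.08 percentage points) and positive at days 6 and 7 (1.30 and 0.728). The knockdown was lower in 218 of 218 long genes at day 4 and in 196 at day 5, and higher in 216 at day 6 and in 206 at day 7. The short genes moved the same way by -2.61, -1.35, 1.64 and 1.10 at the median. Of short genes, whose levels rest on fewer windows, 22.1, 39.7, 67.2 and 64.7% were higher in the knockdown at days 4 to 7. The knockdown minus Nons value of the long minus short difference was -0.20, 0.38, -0.44 and -0.47 at days 4 to 7. Its mean of -0.184 ± 0.392 (SD over 4 days) was within the spread between days (exact p = 0.375). It moved with single days, to -0.371 without day 5, -0.0991 without day 6 and -0.0876 without day 7. With correction for GC content the value was negative on all 4 days with a mean of -0.310 (exact p = 0.125, the smallest that 4 pairs can give).

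On the relative scale, the long genes had median changes of -0.0224, 0.0027, -0.0229 and -0.0450 from day 4 to day 7. Averaged over the 4 days, 174 of the 218 long genes (79.8%) had a value below 0, against 50.7% of all gene bodies tested and 64.7% of those of 200 to 500 kb. Without day 7, the day whose knockdown library had a positive rho of level with GC content, the count below 0 was 155. The share of all gene bodies was not computed for that mean. By day, 159, 99, 153 and 160 of the 218 long genes were below 0 at days 4 to 7. The shares of all gene bodies below 0 were 50.6, 50.7, 50.4 and 49.8%. No gene body of any length passed the limma test of the knockdown with day as a block (0% of 10567), and at an unadjusted p under 0.05 there were 23 long genes, 21 of them with a lower value, and 605 gene bodies in all. The smallest limma adjusted p of a long gene was 0.835.

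The long genes at the ends of this distribution are given as values. Gabrg3, a subunit of the GABA-A receptor, had the most negative mean change, with -0.0405, -0.101, -0.135 and -0.0305 in relative level at days 4 to 7, below 0 on every day. Cdh18 had -0.0721, 0.0383, -0.0949 and -0.164, and Immp2l, a mitochondrial inner membrane peptidase, -0.0745, 0.0275, -0.0957 and -0.140, so both were above 0 at day 5 alone. Without day 5 their means of -0.110 and -0.103 were more negative than that of Gabrg3 (-0.0687). Ank2, which encodes an ankyrin, had the most positive mean with 0.0902, 0.0285, -0.0138 and 0.170, and this place rested on day 7, without which its mean was 0.0350, below Tmem132d and Tenm3 (0.0555 and 0.0412). Tmem132d had 0.0408, 0.0398, 0.0858 and 0.0405, and the teneurin gene Tenm3 0.0744, 0.0114, 0.0378 and 0.0723. Those 2 were the only long genes above 0 on all 4 days (0.917%, against 6.88% of all gene bodies), and 32 were below 0 on all 4 (14.7%, against 7.14%).

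**Figure D5:**
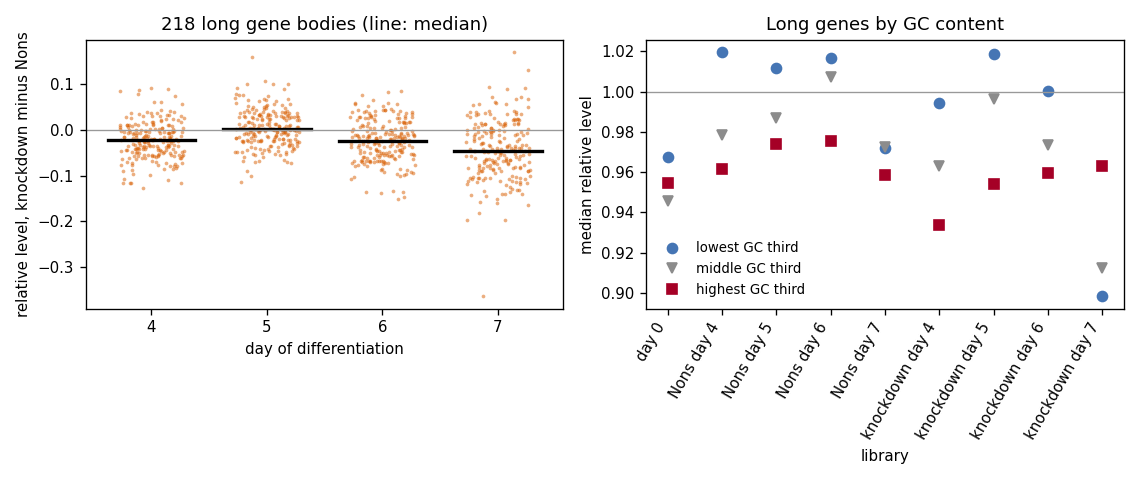
Left, knockdown minus Nons in relative level for each of 218 long gene bodies at days 4 to 7, with the median as a line. Right, median relative level in each library of long genes split by GC content into 73, 72 and 73 genes. The medians on the left are below 0 except at day 5, and on the right the lowest-GC genes move from 1.02 to 0.898 between the knockdown libraries of days 5 and 7.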

How the data were processed

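Each deposited value is a percent, the share of methylated GpC calls in a window of 200 read positions. The authors ran trim_galore, then Bismark on mm10 masked at FVB and CAST sites, extracted informative GpC calls with coverage2cytosine and merged alleles in SeqMonk, without normalization between libraries in these values. The number of calls per window is not given. Here, genes came from GENCODE M21 on GRCm38, and 3318 autosomal windows lacking a value in any library were left out, which left 786533. A gene's level was the mean over its body windows. Contrasts were tested with two-sided exact sign-flip permutation tests over 9 libraries or 4 day pairs. Relative levels of gene bodies with 5 or more windows were fitted with limma on all 10567 bodies. The fit used an eBayes trend on the number of windows and Benjamini-Hochberg adjustment at 0.05. The level was tested against 1, and the knockdown with day as a block. The libraries are a time course and no replicates, so these p-values measure spread over libraries only. The scripts were tested on simulated data.

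Named genes were the 5 longest, the 5 highest and 5 lowest in relative level, the 3 largest rises and falls with the knockdown, the extremes against flanks, and the highest and lowest of 6 functional lists. The members and lists were chosen with earlier results of these data known. A gene in 2 lists was counted in both. Software was Python 3.11.15, pandas 2.3.3, R 4.3.3 and limma 3.58.1. Alternatives covered window filters, gene summaries, GC and length correction, normalization, gene and flank limits, and each library left out.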

Additional observations from a re-analysis of the deposited data

Results flagged for a closer look

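The knockdown effect on the difference between long and short gene bodies changed sign between days. From day 4 to day 7 it took the values -0.20, 0.38, -0.44 and -0.47 percentage points, so day 5 stood opposite the other 3 days. After correction for GC content it was negative on all 4 days. Each value compares 1 knockdown library with 1 Nons library, so the difference between days was not tested, and day and library cannot be told apart.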

How the results depend on the processing

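Depth per window is unknown and there are no replicates, so no value has an interval for counting error or for library preparation, and p-values cover spread over libraries only. The mean of long minus short gene bodies kept its negative sign in all 24 alternatives. It passed the adjusted threshold, which it missed as reported, with the median over the windows of a gene (-0.315, -0.042 on the log2 scale), with only the 5′ ends of protein-coding and long non-coding RNA genes removed (-0.301, -0.037), with correction for GC content (-0.348, -0.038) or for GC content and window length (-0.310, -0.032), by window (-0.296, -0.039) and with means over genes (-0.501, -0.061). The cause was not tested. Leaving out 1 library gave -0.228 to -0.125 (-0.030 to -0.013 on the log2 scale). Body minus flanks, never past the threshold, turned negative without exon windows (-0.0076), with correction for GC content (-0.0127) or GC content and length (-0.0095), and with means over genes (-0.0114), and was 0.0090 to 0.0440 with 1 library left out. The last part minus the middle passed after GC correction (0.148), and was 0.0375 against parts 5 and 6 and 0.0396 to 0.0915 with 1 library left out. Exon minus intron-only windows was 0.171 to 0.218 with 1 library left out, and the test then has fewer libraries. Without the variance trend in limma the calls were 40 in place of 102, 4 higher and 36 lower. Of all 10567 gene bodies, 921 were then higher and 672 lower. With 1 library left out the calls among long genes were 90 to 98, 14 to 23 higher and 74 to 82 lower. The knockdown test called no long gene in any of 9 alternatives, including the fit without day as a block. Knockdown and Nons libraries were paired by the day in the labels, which number no replicates. All 180 alternative values for named genes moved by less than their SD over libraries, and all 24 for their knockdown changes kept their sign.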

Other observations

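The X chromosome, outside the rule used above, has 12 protein-coding genes of 500 kb or more, among them Dmd (dystrophin), Tenm1 and Il1rapl1. Their median relative level against the same autosomal gene bodies was 0.969 at day 0, with 1.02, 1.01, 1.02 and 0.931 for Nons from day 4 to day 7 and 1.01, 1.05, 0.992 and 0.884 for the knockdown. The medians of the 218 autosomal long genes were 0.957 at day 0, with 0.989, 0.989, 1.01 and 0.970 for Nons and 0.969, 0.998, 0.978 and 0.917 for the knockdown. The X-linked long genes were thus above the autosomal ones in all 7 libraries up to day 6, and below them in both libraries of day 7. The 73 autosomal long genes of lowest GC content also fell, from 1.02 at day 6 to 0.972 at day 7 in Nons. In the knockdown they fell from 1.00 to 0.898. The X-linked genes were not matched to autosomal genes for GC content. Of the 12, 8 were below 1 at day 0, 4, 5, 5 and 8 for Nons, and 5, 2, 8 and 11 for the knockdown. These are 12 genes on 1 chromosome in single libraries, and no test was made.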
